A study of Mus musculus with 51 samples.

Results

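Spink3 and 9030619P08Rik are 2 of the 33773 mouse genes in the deposited RNA matrix, and both stood out by high RNA in hepatocytes in which FoxA1, FoxA2 and FoxA3 were all targeted. They were chosen by their RPKM values across all 6 RNA groups, because they are high in the FoxA triple null and low elsewhere. Their levels in these groups are therefore a description, and no test is given for them. In the triple null, Spink3 averaged 122.6 ± 45.5 RPKM and 9030619P08Rik 366.4 ± 30.5 RPKM (SD, n = 4). The highest of the other 17 libraries held 3.6 RPKM of Spink3 and 7.30 RPKM of 9030619P08Rik. RPKM is the number of reads on a gene scaled by its length and by the size of the library.

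The forkhead proteins FoxA1, FoxA2 and FoxA3 and the nuclear receptor HNF4a are DNA-binding regulators of liver genes. The series compared hepatocytes with and without them. Triple null hepatocytes (4 libraries) came from FoxA1 L/L, FoxA2 L/L, FoxA3-/- mice that received, at 8 weeks of age, an AAV8 virus with Cre recombinase under the Tbg promoter, which is active in hepatocytes. FoxA3 null hepatocytes (4 libraries) came from mice of the same transgenes given an AAV with GFP, also at 8 weeks of age. Both groups therefore lack FoxA3 and carry a virus. FoxA1/A2 lox hepatocytes (3 libraries, lox here) have FoxA3 and, by their label, no Cre. FoxA1/A2 Cre alfp hepatocytes (4 libraries, Cre alfp here) have FoxA3 and lost FoxA1 and FoxA2 through a Cre whose label names alfp, by general knowledge the albumin and alpha-fetoprotein regulatory elements, which act in the liver from before birth. The age of the lox and Cre alfp mice is not given in the sources used here. Liver tissue gave 2 libraries labelled HNF4a control and 4 labelled HNF4a null, the deletion having been made in adult liver.

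Spink3 encodes a small secreted protein with a Kazal domain, a fold that blocks trypsin by sitting in its active site. RefSeq lists the gene as Spink1, with Spink3 as a synonym, and the human SPINK1 protein is best known for protecting the exocrine pancreas from trypsin that becomes active too early. In liver disease and inflammation SPINK1 is also known as an acute phase and tumour-associated protein. 9030619P08Rik is listed by RefSeq as a transcribed pseudogene. It lies on chromosome 15 within a cluster of Ly6 genes, which encode small cell surface proteins of the Ly6/uPAR fold, such as Ly6a (Sca-1), Ly6c and Ly6g on blood cells. Spink3 lies on chromosome 18 (both positions from the GRCm38.p6 gene table, used here for names and gene order).

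The labels were checked on the targeted genes. In the triple null, Foxa2 measured 0.243 to 0.470 RPKM and Foxa1 3.04 to 3.63 RPKM, against 11.1 to 20.6 and 6.14 to 10.2 RPKM in FoxA3 null. In Cre alfp, Foxa2 measured 0.991 to 1.26 RPKM and Foxa1 1.14 to 1.34 RPKM, so more Foxa1 RNA and less Foxa2 RNA remained in the triple null than in Cre alfp. Foxa3 was at or under 0.0114 RPKM in the triple null and in its FoxA3 null controls and at 19 to 34.5 RPKM in lox and Cre alfp. Hnf4a RNA was not lower under its label: the libraries labelled HNF4a null held 487 to 545 RPKM and the controls 118 and 126 RPKM. RPKM counts reads over the whole gene and cannot show whether a part of it was deleted. This check therefore does not decide the label, and these libraries are named by their label only. The hepatocyte libraries also separated as a block, with FoxA3 null and triple null (8 libraries) on one side and lox and Cre alfp (7 libraries) on the other: for 1272 of 11500 tested genes the values of the sides were disjoint. The triple null and its FoxA3 null controls lie within a side, as do Cre alfp and lox; the triple null against lox or Cre alfp crosses it, so that loss of FoxA3, the virus and whatever else separates the sides cannot be told apart there. Whether the libraries of a group came from separate animals is not stated, so p-values measure the spread between these libraries. Relative depth was estimated from the most common ratio of low RPKM values between libraries, on the premise that whole reads were counted. In units of the shallowest library, the estimate ran from 2.01 to 4.07 over the hepatocyte libraries and from 1 to 1.1 over the liver libraries.

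Spink3 measured 83.4, 187.6, 117.1 and 102.4 RPKM in the 4 triple null libraries. Triple null library 2 was the highest and library 1 the lowest, a 2.25-fold spread. In FoxA3 null it measured 0.650, 0.473, 1.07 and 0.602 RPKM, so that the lowest triple null library lay far above the highest library of its control and the groups did not overlap. The ratio of means was 175.5 ± 65.1 (SD over the 4 triple null libraries), and the difference of mean log2(RPKM + 1) was 6.13 (SE 0.317). By mean RPKM Spink3 ranked 743 among all genes of the triple null, and 11141 where FoxA1 and FoxA2 were kept.

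The groups with FoxA3 also had little Spink3. Lox measured 0.478, 1.11 and 0 RPKM. Cre alfp measured 0.878, 1.26, 3.6 and 0.718 RPKM, and its library 3 was the highest of all libraries outside the triple null. Cre alfp and lox overlapped, with a difference of 0.72 (SE 0.342) on the log2(RPKM + 1) scale and 1.78 with a pseudocount of 0.1; the choice of the gene fixed that both are low. The triple null exceeded lox by 6.34 (SE 0.342) and Cre alfp by 5.62 (SE 0.317) on the same scale, across the split of the libraries. In liver, the HNF4a controls measured 0.340 and 0.339 RPKM. The libraries labelled HNF4a null measured 0, 0.347, 0.00798 and 0.0171 RPKM, which overlapped the controls, and Spink3 did not pass the filter on low values there.

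9030619P08Rik measured 321.5, 376.1, 389.0 and 379.0 RPKM in the triple null, a spread of only 1.21-fold. The coefficient of variation over these 4 libraries was 8.31%, against 37.1% for Spink3. FoxA3 null measured 1.49, 4.02, 4.83 and 4.96 RPKM. The ratio of means was 95.9 ± 7.97 (SD over the 4 triple null libraries), and the difference was 6.33 (SE 0.25) on the log2(RPKM + 1) scale. On this scale it was close to the 6.13 of Spink3, whose ratio of means was larger (175.5). With a pseudocount of 0.1 the difference of Spink3 became 7.25. By mean RPKM it ranked 237 in the triple null, against 7687 in the controls.

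9030619P08Rik differed among the other groups as well. Lox measured 6.29, 7.30 and 4.59 RPKM. Cre alfp measured 3.92, 2.02, 1.89 and 2.52 RPKM, all under the lowest lox library, with a mean 2.34-fold lower and a log2(RPKM + 1) difference of -0.99 (SE 0.271). The share of all genes that separate in this way, here or in liver below, is not given. The lack of overlap is therefore a description. Cre alfp minus lox (-0.99) and triple null minus FoxA3 null (6.33) are of opposite sign. These contrasts differ in FoxA3, in the Cre and the virus and in the Foxa1 RNA that remained, which cannot be told apart. The triple null exceeded lox by 5.72 and Cre alfp by 6.71 on this scale. The HNF4a controls measured 3.45 and 3.26 RPKM. The libraries labelled HNF4a null measured 0.462, 0.113, 0.333 and 0.157 RPKM, without overlap with the controls, and the mean was 12.6-fold lower. The log2(RPKM + 1) difference was -1.79 (SE 0.158), or -2.13 relative to the median of all tested liver genes, which itself was 0.337. With a pseudocount of 0.1 the difference was -3.35, and the authors' deposited table has a log2 fold change of -4.12 (SE 0.614).

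**Figure D1:**
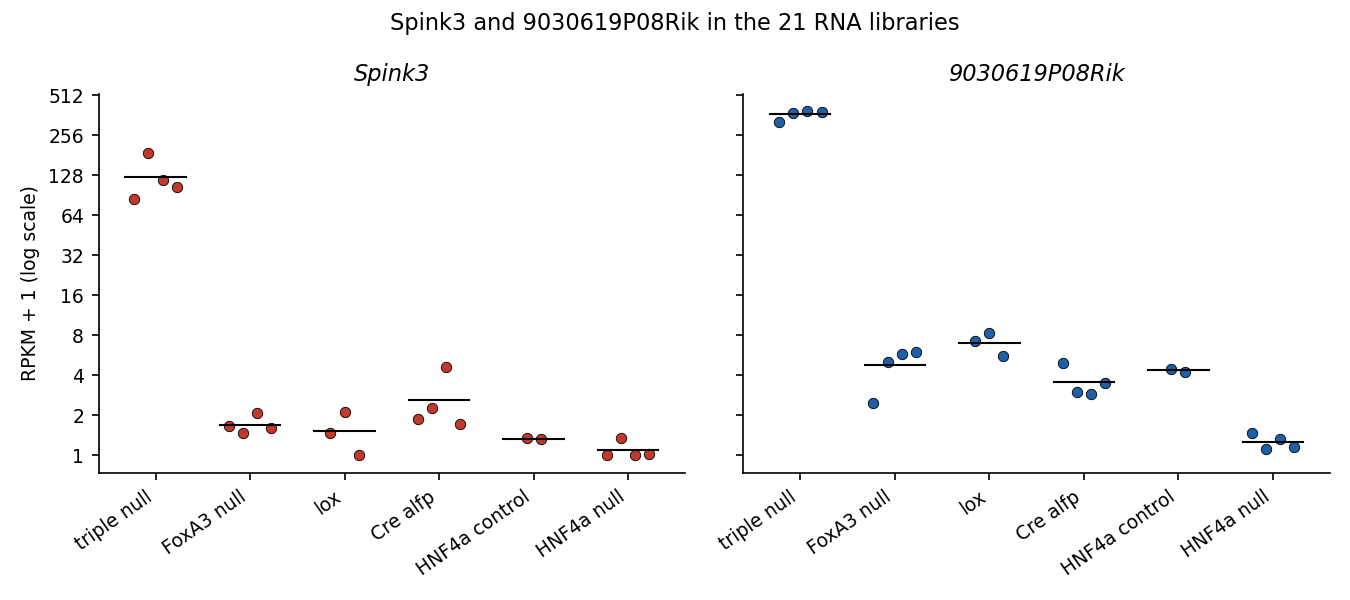
Spink3 (left) and 9030619P08Rik (right) in every RNA library, as RPKM + 1 on a log scale (y axis), by group (x axis). Points are libraries and bars are group means; the 4 triple null libraries of each gene sit above every other library, from 83.4 RPKM for Spink3 and from 321.5 RPKM for 9030619P08Rik.

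Ordered by mean RPKM, Spink3 ran from the triple null through Cre alfp (1.62), FoxA3 null (0.699), lox (0.531) and HNF4a control (0.339) to the libraries labelled HNF4a null (0.0931). Of these neighbours in the order, only the triple null stood clear of the next group; each other pair overlapped. The order for 9030619P08Rik was the triple null, lox (6.06), FoxA3 null (3.82), HNF4a control (3.36), Cre alfp (2.59) and HNF4a null (0.266). Here both the step from the triple null to lox and the step from Cre alfp to HNF4a null were free of overlap, and the 3 steps between lox and Cre alfp were not.

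Within the triple null the genes did not move in parallel. The ratio of 9030619P08Rik to Spink3 was 3.86, 2.01, 3.32 and 3.70 in libraries 1 to 4, and library 2, the highest for Spink3, was not the highest for 9030619P08Rik. All 4 libraries were bulk RNA, in which fewer cells with the transcript and less transcript per cell cannot be told apart. The Foxa2 that remained was 0.243, 0.429, 0.323 and 0.470 RPKM in the same libraries.

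The size of the difference can be set against all other genes by a simple gap, the lowest triple null library minus the highest of the other 17 libraries on the log2(RPKM + 1) scale. A gap of at least 1 was found for 42 of 33773 genes (0.124%), and any gap above 0 for 775 genes (2.29%). 9030619P08Rik had the largest gap of all genes, 5.28, and Spink3 the third largest, 4.20. Since the genes were picked for this pattern, these ranks describe them and support nothing further. Between them came Sult1e1, the oestrogen sulfotransferase, with a gap of 4.75 and 786 RPKM in its lowest triple null library. Sult1e1 differed in its background, with 6.50 to 28.2 RPKM in Cre alfp against 0.102 to 0.163 RPKM in lox. Next were Ugt2b37, a glucuronosyltransferase (2.77), Lcn2, the iron-siderophore binding protein lipocalin 2 (2.68), and Hpca, the neuronal calcium sensor hippocalcin (2.42). Cyp17a1, a steroid hydroxylase (2.27), Apoc2, the cofactor of lipoprotein lipase (2.19), Cidec, a lipid droplet protein (1.86), and Apoa4, an apolipoprotein of intestine and liver (1.84), completed the 10 largest gaps.

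**Figure D2:**
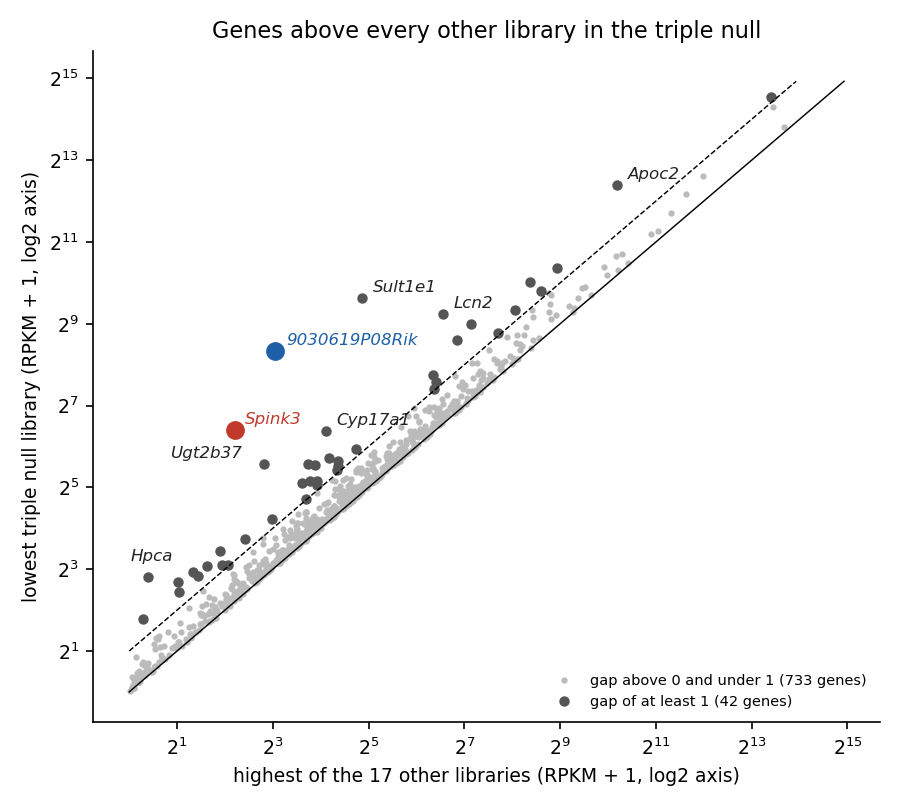
Lowest triple null library (y axis) against the highest of the 17 other libraries (x axis) for the 775 genes with a gap above 0, both as RPKM + 1 on log2 axes. The solid line marks equality and the dashed line a gap of 1; 9030619P08Rik and Spink3 lie farthest from the solid line together with Sult1e1, with gaps of 5.28, 4.20 and 4.75.

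Likeness to each gene was measured by Pearson's r on log2(RPKM + 1) over all 21 libraries, among 9082 genes with a group mean of at least 5 RPKM. All libraries share the contrast between the triple null and the rest, so these values are a description. Spink3 and 9030619P08Rik correlated with each other at 0.954 (Spearman's rho 0.631), which was the fifth highest value for Spink3 and the third highest for 9030619P08Rik. Within the 15 hepatocyte libraries the value was 0.959. The genes named next depend on the measure: of the 5 most like Spink3, 0 were also among the 5 highest by Spearman's rho or within the hepatocyte libraries, and of the 5 most like 9030619P08Rik, 0 and 3 were. Most like Spink3 were Hpca (0.965), Ugt2b37 (0.963), the homeobox gene Hmx1 (0.958) and Pla2g2e, a secreted phospholipase A2 (0.955). Most like 9030619P08Rik were Ugt2b37 (0.965), the long non-coding RNA 4930480G23Rik (0.955), Spink3, 4930572J05Rik (0.954), which RefSeq names Them6, and Hpca (0.941). All genes named here other than 9030619P08Rik reached a group mean of 5 RPKM only in the triple null. They therefore entered the comparison through the group that shapes these values.

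These genes reached very different levels. Ugt2b37 measured 70.0, 57.9, 50.1 and 46.7 RPKM in the triple null and 0.05 to 6.02 RPKM elsewhere. Hpca measured 12.5, 11.1, 5.97 and 14.4 RPKM in the triple null and at most 0.307 RPKM elsewhere, so it shared the pattern at a far lower level. Pla2g2e measured 9.21, 6.42, 6.95 and 2.44 RPKM in the triple null. Neither Hpca nor Hmx1 nor Pla2g2e had its highest triple null library in library 2, where Spink3 was highest.

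Promoter sequence shows what surrounds the start of 2 genes that the comparison with 9030619P08Rik turns on: Ugt2b37, first in likeness to it by Pearson's r over the 21 libraries though not by the other measures, and Ly6f, the protein-coding gene next to it on the side with the lower coordinates. The supplied table of RefSeq promoters (GRCm38.p6) has no entry for Spink3 or 9030619P08Rik. The 250 bases before each start are given 5′ to 3′ on the gene's own strand, Ugt2b37 at chr5:87254789-87255038 (minus strand) and Ly6f at chr15:75268171-75268420 (plus strand). Capitals mark TGTTTAC, the core of the forkhead motif, read on either strand.
Ugt2b37: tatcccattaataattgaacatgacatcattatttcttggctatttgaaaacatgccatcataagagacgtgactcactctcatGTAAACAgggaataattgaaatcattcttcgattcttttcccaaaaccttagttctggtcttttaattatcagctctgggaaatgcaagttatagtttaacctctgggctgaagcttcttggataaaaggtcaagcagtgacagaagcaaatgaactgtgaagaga
Ly6f: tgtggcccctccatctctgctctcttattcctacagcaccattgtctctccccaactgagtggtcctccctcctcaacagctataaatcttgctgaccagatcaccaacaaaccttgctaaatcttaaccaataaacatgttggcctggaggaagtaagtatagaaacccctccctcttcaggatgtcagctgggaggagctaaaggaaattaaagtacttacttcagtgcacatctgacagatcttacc
Ugt2b37 holds 1 match, on the other strand, which begins 166 bases before the start, and Ly6f holds none. Of all 32851 windows of this length in the table, 1040 (3.17%) hold a match on either strand. A match is a run of letters and not a measured binding site.

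Many chromosomal neighbours could not be compared. Of the 10 nearest protein-coding genes of Spink3, 5 on each side, 9 are in the matrix and 6 of these stayed under 1 RPKM in every library. Of the 10 of 9030619P08Rik, 4 are in the matrix and 2 stayed under 1 RPKM. Only 3 could be tested in triple null against FoxA3 null, where 8.11% of all 11500 tested genes were called (adjusted p under 0.05 by limma and an absolute log2 difference of at least 1), 4.17% higher and 3.95% lower. One of them, Ly6f next to 9030619P08Rik, entered the test only through the triple null, the group where it is high, so its values are given without a test. Ly6f measured 1.35, 1.3, 2.61 and 0.81 RPKM in the triple null and at most 0.11 RPKM in every other library, and the groups did not overlap. Without triple null library 1, 2 or 3 it fell under the filter on low values. Next to Spink3, Gm9781 (0.56) and Spink6 (0.80) were not called. Jakmip2, Scgb3a2, Spink5 and Spink14, also beside Spink3, had no library at 1 RPKM.

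Of the Kazal-type SPINK inhibitors in the matrix, only Spink3 passed 3 RPKM in any library. Of the 11 other family genes in the matrix, 10 stayed under 1 RPKM in every library, among them Spink5, the inhibitor of skin kallikreins, and Spink4 of the gut. Spink6, the remaining one, measured 0, 2.30, 0.202 and 1.74 RPKM in the triple null and up to 2.73 RPKM in Cre alfp. Its difference from FoxA3 null did not pass (0.80, SE 0.409, limma adjusted p = 0.158).

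Among Ly6/uPAR genes, several were higher in the triple null, though none near the extent of 9030619P08Rik. Of 32 in the matrix, 20 stayed under 1 RPKM in every library. Ly6f aside, 6 were tested: 4 were called higher than in FoxA3 null, none lower, with a median difference of 1.18 beside 0.05 over all tested genes. Of all 11234 genes that pass the filter without the triple null, 3.84% were called higher. Ly6d, a surface marker of B cell progenitors and of some epithelia, rose most, by 4.17 (SE 0.525, limma adjusted p = 4.3e-05). Its triple null libraries held 22.6, 102.4, 11 and 31.8 RPKM and its FoxA3 null libraries 0.07 to 2.38 RPKM. Ly6a rose by 1.34, Ly6e, a widely expressed interferon-inducible member, by 1.3 and Cd59a, an inhibitor of the complement membrane attack complex, by 1.05. With median scaling Cd59a was at 0.99 and lost its call. Cd59b (0.68) and Gpihbp1 (-0.84), the carrier of lipoprotein lipase in capillaries, were not called. Gpihbp1 was called lower without triple null library 1 (-1.10) and with a pseudocount of 0.1 (-1.365). Near-identical copies within this family, and a pseudogene such as 9030619P08Rik, can share reads, and how the counting divided them is not given in the sources used here.

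With FoxA3 present, 1 family gene was called. In Cre alfp against lox, where 2.38% of genes were called (274 genes, and 177 without lox library 1), this was Ly6e (1.88 higher, limma adjusted p = 1.4e-05). The difference between the deletions was tested as an interaction, which called 6.82% of all genes. It was past the threshold for Ly6d (3.70) and Cd59a (1.14), both larger without FoxA3, and not for Ly6a or Ly6e. In liver, where 14.5% of genes were called, Ly6d was also high in the libraries labelled HNF4a null, at 22.3 to 74.3 RPKM against at most 0.15 RPKM in the controls, while 9030619P08Rik was lower in those libraries.

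**Figure D3:**
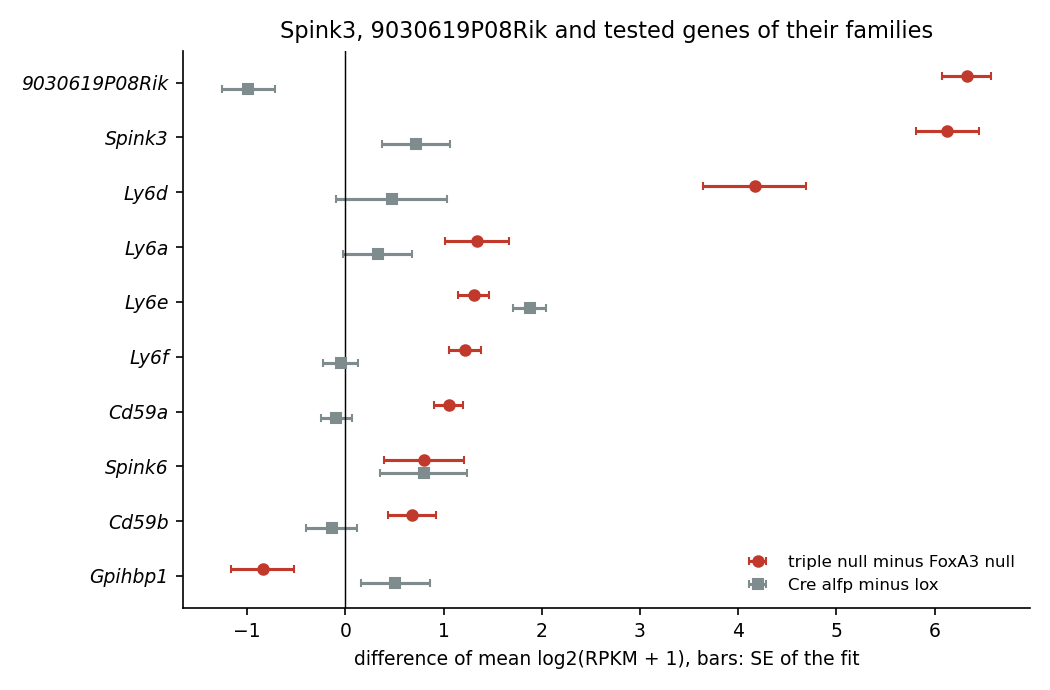
Difference of mean log2(RPKM + 1) (x axis) for Spink3, 9030619P08Rik and the tested genes of their families (y axis); circles are triple null minus FoxA3 null, squares Cre alfp minus lox, bars the SE of the fit. Ly6f entered the fit only through the triple null. Both genes lie above 6 in the first comparison, Ly6d at 4.17, and 9030619P08Rik at -0.99 in the second.

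Because Spink3 is a pancreatic acinar gene in healthy mice, acinar markers were examined beside it. None of them was called higher in triple null against FoxA3 null. Of 29 acinar markers in the matrix, which leave out Spink3, 28 stayed under 1 RPKM in every triple null library and 14 were at 0 in all of them. Their RPKM added up to between 4.23 and 7.14 per triple null library, against 12.5 to 30.0 in the FoxA3 null controls. Without Cela1 and Pnliprp1 the sums were 0.456 to 3.06 and 0.910 to 2.52 RPKM and overlapped. Cela1, an elastase, was the only one tested in triple null against FoxA3 null and was called lower, with a difference of -1.75 (SE 0.255). In liver, where 14.5% of all genes were called, 4 acinar markers were tested. Pnliprp1 and Bhlha15 were called higher and Cela1 lower in the libraries labelled HNF4a null. The sums were 45.8 to 80.2 RPKM there and 16.1 to 21.9 RPKM in the controls. Without Cela1 and Pnliprp1 they were 4.233 to 6.789 and 2.514 to 3.135 RPKM.

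Trypsin inhibitors act on serine proteases, and those of the liver were examined beside Spink3. Of 28 trypsin-like serine proteases of the liver or its surface, 22 were tested; none was called higher in the triple null and 12 were called lower, with a median difference of -1.05 beside 0.05 over all genes, and 10 were not called. Over all tested genes, 3.95% were called lower. Lowest were F11, coagulation factor XI (-4.11), C1s of the complement cascade (-3.18), Plg, plasminogen (-2.80), and Hp, haptoglobin, a protease-like haemoglobin carrier (-2.70). Members of the list were also called lower in the other comparisons, and a link to Spink3 was not tested. In Cre alfp against lox, with 2.38% of all genes called in either direction, these were 3 of 22, among them F11 (-1.32) and Hp (-1.78), and none was called higher. In the libraries labelled HNF4a null, with 14.5% of all genes called, 10 of 26 were lower, among them F11 (-2.56) and C1s (-2.37), and 4 were higher.

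Acute phase genes and IL-6 targets, the setting in which SPINK1 is known to rise in liver, moved in both directions. All 33 listed genes were tested; 12 were called higher and 9 lower, beside 4.17% higher and 3.95% lower of all tested genes, and the median was 0.14. Hamp2 of the hepcidin family was higher by 5.36, Lcn2 by 5.21 and Orm3 by 4.26, while Serpina3n was at -5.02. Of 28 genes linked to fetal liver and liver tumours, 18 were untested and 3 more entered the test only through the triple null. Of the other 7, 5 were called higher and none lower, with a median of 3.82, beside 3.84% called higher among all genes that pass the filter without the triple null. Afp, one of the 3, was not called, and the authors' deposited table has it at -0.21 for triple null against FoxA3 null (authors' adjusted p = 0.519). The list was led by Anxa2 and Scd2 (4.20 each), Ly6d and Lgals1 (3.82). Among genes higher in female than in male mouse liver, 7 of 19 tested were called higher and 1 lower, beside 3.84% and 4.04% of all genes that pass the filter without the triple null, led by Sult1e1 (7.75), Cyp17a1 (4.43) and Slc22a26 (2.74). Atp6v0d2 (3.05) entered the test only through the triple null and is not counted. Of genes higher in males, 16 of 31 were called lower and 3 higher, beside 3.95% and 4.17% of all tested genes, led by Ugt2b1 (-6.20), Slco1a1 (-6.04), Hsd3b5 (-6.02) and Mup21 (-5.93). In Cre alfp against lox, with 2.38% of all genes called, 10 of 20 tested genes of the female list were higher and 0 lower. Of the male list, 11 of 31 were lower there and 0 higher. In the libraries labelled HNF4a null, with 14.5% of all genes called, 14 of 20 of the female list were higher and 2 lower. Of the male list, 29 of 31 were lower there and 0 higher. A link of these lists to Spink3 was not tested. Xist was at most 0.36 RPKM and Ddx3y, on the Y chromosome, 14.9 to 32.9 RPKM in every library.

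Summed markers of some other cells also differed between the triple null and FoxA3 null. The 12 neutrophil markers added up to 9.90 to 113.1 RPKM per triple null library, against 0.902 to 2.14 for the FoxA3 null controls, 1.24 to 1.65 for lox and 1.63 to 3.91 for Cre alfp. Of these markers 9 stayed under 1 RPKM in every triple null library. Ly6g, the defining one, is listed at 0 in every library of the matrix, so it separates no group. Among these 9, Cxcr2 measured 0.0785 to 0.189 RPKM against at most 0.02 RPKM in the other hepatocyte groups. The rest of the 9, Ly6g aside, overlapped at least 1 other hepatocyte group, such as Elane with 0.0452 to 0.273 RPKM against up to 0.335 RPKM in lox. Retnlg, at 0.0809 to 1.45 RPKM, overlapped Cre alfp (up to 0.335 RPKM). These were not tested. S100a8 was called higher (3.48), and S100a9 (2.69) entered the test only through the triple null. S100a8 measured 3.93, 91.3, 19.6 and 14.9 RPKM in triple null libraries 1 to 4, in the same order as Spink3, and S100a9 5.03, 17.3, 3.53 and 9.02 RPKM, in another order. Spink3, Ly6d and both of these markers were highest in library 2. The part of these cells in the levels of Spink3 or Ly6d was not tested. Endothelial markers added up to 10.4 to 22.8 RPKM, against 37.0 to 58.1 RPKM in the FoxA3 null controls. Cholangiocyte markers (30.1 to 41.3 and 30.3 to 32.8) and Kupffer cell markers (18.0 to 57.6 and 27.5 to 37.6) overlapped between these groups. Stellate cell markers were 7.29 to 26.3 and 27.5 to 37.0 RPKM, and 11 hepatocyte markers added up to 30230 to 34110 RPKM per triple null library against 63060 to 68180 RPKM in FoxA3 null. The stellate sums of the triple null overlapped lox (22.63 to 30.5 RPKM) and Cre alfp (15.26 to 57.36 RPKM). Its endothelial sums overlapped neither lox (47.65 to 79.42 RPKM) nor Cre alfp (27.17 to 95.66 RPKM).

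The authors' deposited tables also compare developing with adult liver cells. Which adult libraries served as reference is not given in the sources used here, and they may be among those by which the genes were chosen, so these values are a description. In the authors' deposited table of newborn against adult hepatocytes, Spink3 was higher in newborns by a log2 fold change of 6.42 (SE 1.66, authors' adjusted p = 0.00027), and ranked 128 of 12176 genes. In the same table from the authors' deposited set, 9030619P08Rik changed by 0.20 (SE 0.33, authors' adjusted p = 0.624). The difference between the genes was not tested. As a check of direction, Afp, the fetal serum protein, had 14.19 in that authors' deposited table.

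Hepatoblasts are the fetal progenitors of hepatocytes. In the authors' deposited table of hepatoblasts against adult hepatocytes, 9030619P08Rik was lower in hepatoblasts by -9.04 (SE 1.49, authors' adjusted p = 2.95e-09), ranking 63 from the lowest of 13473 genes. Spink3 in that authors' deposited table was at -4.19 (SE 2.84, authors' adjusted p = 0.164), which did not pass. The genes were chosen for high levels in the triple null, which fixes the direction of the comparisons that follow. In the authors' deposited table of triple null against hepatoblasts, the log2 fold changes were 11.58 for Spink3 and 14.76 for 9030619P08Rik. The authors' deposited table of triple null against FoxA3 null has 7.32 (SE 0.399) for Spink3 and 6.47 (SE 0.249) for 9030619P08Rik. Spink3 had 6.0 against Cre alfp and 7.41 against controls without deletion in the authors' deposited tables. The authors' deposited values of triple null against hepatoblasts and of hepatoblasts against adults nearly add up to those against these controls. For Spink3 they were 11.58 and -4.19 beside 7.41, and for Afp -8.78 and 9.67 beside 0.887. The adult reference for hepatoblasts may therefore be these controls, whose libraries are not named.

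**Figure D4:**
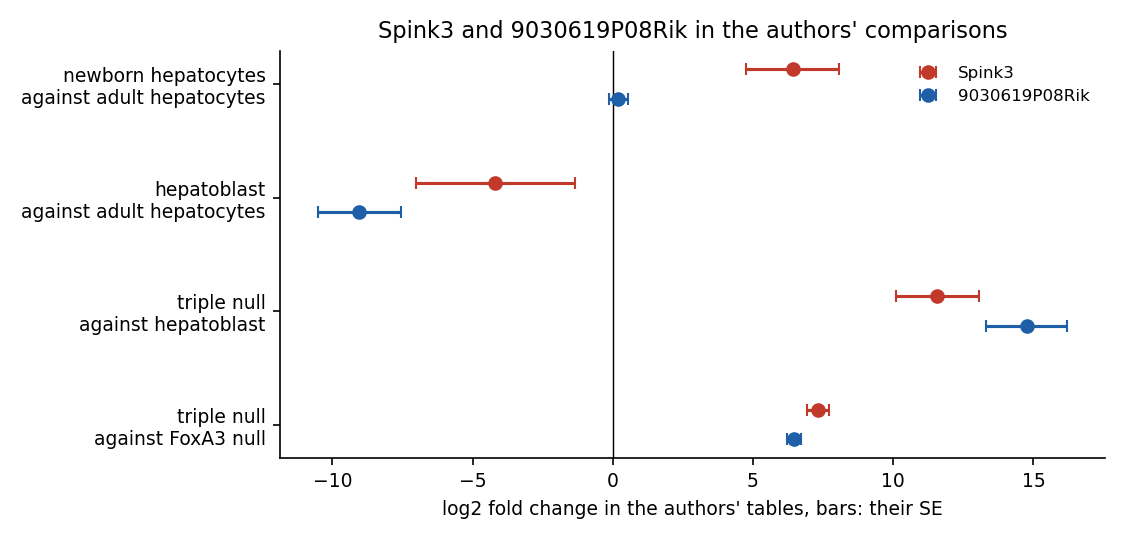
Log2 fold changes in the authors' deposited tables (x axis, bars: the authors' SE) for Spink3 and 9030619P08Rik in 4 of their comparisons (y axis). In newborns against adults Spink3 is at 6.42 and 9030619P08Rik at 0.20; in hepatoblasts against adults they are at -4.19 and -9.04.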

How the data were processed

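RNA was sequenced from hepatocytes (15 libraries) and liver (6 libraries); per the labels' protocols TRIzol RNA went into NEB Ultra libraries for Illumina sequencing. The authors deposited RPKM in 1 matrix; the submitters' processing notes name Cufflinks 2.2.1, SAMtools, DESeq2 and the build mm9. Of its columns, 21 matched samples and 9 matched none and were not used. Of the values above 0, 2.9% were under 1e-06, and absolute depth is unknown. The authors' deposited comparison tables give a log2 fold change and a p-value per gene, the latter adjusted except in the table against Cre alfp; the sign of the table against controls without deletion was turned. Peak, signal and chromatin data were not analysed here.

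Differences were computed with limma 3.58.1 in R 4.3.3 (trend) on log2(RPKM + 1), in 1 fit for hepatocytes (genes reaching 1 RPKM in 3 or more libraries) and 1 for liver (2 or more), with Benjamini-Hochberg adjustment over all tested genes. For low genes, folds on this scale come out too small. A gene was called at an adjusted p under 0.05 and an absolute difference of at least 1. Tables and figures used Python 3.11.15, pandas 2.3.3, numpy 2.4.6 and matplotlib 3.10.9. On simulated data for triple null against FoxA3 null, 94.5% of 200 genes changed by 1.5 were called among 11500, and 98% of those changed by 3. The noise was normal and the changed genes were drawn from the better expressed ones. These rates therefore do not cover low genes such as Spink6.

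Genes named are Spink3, 9030619P08Rik, the Foxa genes and Hnf4a, the 10 largest gaps, the 5 most alike per gene, tested neighbours and family genes, and up to 4 called genes per list by size of difference. Spink3 and 9030619P08Rik, and the 16 gene lists, were chosen with earlier results of these data known. Alternatives covered the pseudocount, filter, scaling, fit, replicate block, minimum difference, leaving out each library and, chosen after seeing the data, counting only genes that pass the filter outside the triple null.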

Additional observations from a re-analysis of the deposited data

Results flagged for a closer look

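For list genes and neighbours, the effect of deleting FoxA1 and FoxA2 without FoxA3 was tested against that with FoxA3. Genes named for their gap or likeness and genes that entered the test only through the triple null were left out. Of 41 genes, 18 passed the threshold of the interaction, beside 6.82% of all genes. Most of these genes were named for a large difference of triple null from its FoxA3 null controls, which is part of the interaction, so the count is a description. The contrasts also differ in the Cre, the virus and the Foxa1 RNA that remained, which cannot be told apart from FoxA3. On the log2(RPKM + 1) scale the effect without FoxA3 was more positive for Ly6d (3.70), Cd59a (1.14), Orm3 (1.68), Anxa2 (3.76), Lgals1 (2.93), S100a8 (2.99) and Hpd (1.12). It was more negative for F11 (-2.79), C1s (-2.85), Plg (-2.38), Serpina3n (-3.35), Ugt2b1 (-5.69), Slco1a1 (-5.35), Egfl7 (-1.48), Colec11 (-1.50), Ttr (-5.85), Apoa1 (-4.33) and Cps1 (-2.08).

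Single libraries stood apart from the other 3 of their group in 14 of 222 cases by Dixon's test, in which chance alone gives about 1 in 20. Groups with no library at 1 RPKM were not tested, among them Spink3 in the libraries labelled HNF4a null, where 1 library had 0.347 RPKM and the others at most 0.0171 RPKM. Groups of Spink3 and 9030619P08Rik are among the 222, and no result is drawn from them, since the genes were chosen by these values. In FoxA3 null, library 3 was high for Foxa2 (20.6 RPKM) and Hpd (3018 RPKM) and library 1 for Ddx3y (19.2 RPKM). In the triple null, library 3 was high for Serpina3n (5.15 RPKM) and library 4 for Hsd3b5 (1.73 RPKM). In Cre alfp, library 2 was low for 4930572J05Rik (1.01 RPKM) and library 4 for Hpd (3094 RPKM). The other 7 were in the libraries labelled HNF4a null: Lcn2 (84.0 RPKM), 4930480G23Rik (1.94 RPKM), Atp6v0d2 (1.32 RPKM), Slc22a26 (54.3 RPKM), Anxa4 (63.5 RPKM) and Eng (21 RPKM) had 1 high library, and Slco1a1 (0.766 RPKM) had 1 low library.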

How the results depend on the processing

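A pseudocount of 0.1 in place of 1 moved differences that involve levels near 0: triple null minus FoxA3 null became 7.25 for Spink3, Cre alfp minus lox became 1.78 for Spink3, and the difference of HNF4a null from control became -1.51 for Spink3 and -3.35 for 9030619P08Rik. The latter was -2.05 with median scaling and -2.04 with quantile normalization. Every alternative kept the sign of these differences. Without a minimum difference, 3413 of 11500 tested genes were called for triple null against FoxA3 null. The counts were 628 for Cre alfp against lox, 6569 in liver and 1658 for the interaction. Of the 3 tested neighbours, 2 were then called, Ly6f and Gm9781. With 10 genes on each side and the minimum difference, 3 neighbours were called, Ly6f, Ly6a and Ly6e, beside 8.11% of all tested genes. Both neighbour counts include Ly6f, which entered the test only through the triple null. Counting only genes that pass the filter outside the triple null, an alternative chosen after seeing the data, gave 0 neighbours in place of 1. Genes with a gap numbered 65 against the other hepatocyte libraries alone and 775 for any gap. Leaving out single libraries gave 177 to 284 called genes for Cre alfp against lox and 0 to 1 neighbours. For triple null minus FoxA3 null it gave 5.91 to 6.29 for Spink3 and 6.04 to 6.46 for 9030619P08Rik, and 866 to 1034 called genes. Differences near 0 changed sign: Foxa3 to 0.00103 and 0.00312 without FoxA3 null library 1 or 3 and to 0.00205 without triple null library 2 or 3 (lowest -0.00339), Hnf4a to 0.00431 (lowest -0.278) and Ddx3y to 0.0181 (lowest -0.0947) without FoxA3 null library 1, and Clec4f to 0.0924 (lowest -0.522) without triple null library 3. The cause was not tested. Shared numbers did not pair the hepatocyte libraries: deviations of same-numbered libraries correlated at -0.36 to 0.17, above 0.1 in 3 of 21 pairs. A replicate block cannot move triple null minus FoxA3 null (6.13 for Spink3, 6.33 for 9030619P08Rik), since both groups hold the same replicate numbers. With the block, 919 genes were called in place of 933. Levels under about 1 RPKM in the liver libraries, the shallowest RNA libraries by the estimate of relative depth, are to be read with caution, as their precision was not measured.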
